A study of Ostreococcus tauri with 30 samples.

Results

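The genes described here are 100 of the 7627 genes of the marine green picoalga Ostreococcus tauri, picked because their transcript level under higher copper stood further above the control at 12 h than at 1 or 4 h. They were chosen by the measured values themselves. With levels as log2(CPM+1), where CPM is the count of a gene per 1000000 gene counts of its library, and d(t) the mean of the higher copper libraries minus the mean of the control libraries at time t, a gene had to reach a mean of 5 CPM in at least 1 group and to have d at 1 h and at 4 h under 0.5. The score was d(12) minus the larger of d(1) and d(4), and the 100 genes with the largest score were taken. All genes of chromosome 19, and the low-numbered genes of chromosome 2, were left out by the rule. The floor was reached by 6711 genes, and 5709 could be chosen.

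Polyadenylated RNA of strain RCC745 was sequenced in 30 libraries, 3 for each of 10 groups. These were higher copper at 1, 4 and 12 h from its addition, lower copper at 1, 4 and 12 h, and controls without added copper at 0, 1, 4 and 12 h. The sample labels give the 2 copper levels as 250 and 25 µM and the treatment protocol as 2 and 0.4 µM, so they are called higher and lower copper. All cultures grew on a cycle of 12 h light and 12 h dark, and time after the addition and time of day cannot be told apart. The labels do not say that replicates were separate cultures, so p-values measure the spread between these libraries, which may be technical. Gene counts per library ran from 2549094 to 5232257. Replicate 3 of the controls at 1 h and at 4 h are in doubt, because the ratio of counts per KEGG module (a named set of gene families) to gene counts was 6.06 and 20.1 in them and between 9.89 and 12.2 elsewhere.

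Copper is a cofactor of plastocyanin and of cytochrome c oxidase, which carry electrons in photosynthesis and respiration. In excess it displaces other metals and promotes oxidative damage, and algae answer by binding, exporting or confining it and by repair. Ostreococcus is among the smallest free-living eukaryotes known, with 1 chloroplast, 1 nucleus and a compact genome. In bulk RNA, a change in the share of cells in a state and a change per cell cannot be told apart. RefSeq lists all 100 members of the set, but none with a symbol other than its locus tag, so no role is given for any of them.

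Over the 100 members the score ran from 0.95 to 2.41 with a median of 1.15. The differences behind it had medians of -0.08 at 1 h, -0.15 at 4 h and 1.15 at 12 h, against 0.05, -0.05 and 0.02 over all genes at the floor. These values chose the members and are a description. At 12 h the difference was 1 or more in 65 members and under 0.5 in 4. At both 1 and 4 h, 59 members stood below the control. The last genes inside the limit were OT_ostta17g01040, OT_ostta18g00090 and OT_ostta11g02650 with scores of 0.96, 0.95 and 0.95, and the first outside were OT_ostta05g00540, OT_ostta15g02440 and OT_ostta16g02650 with 0.95, 0.94 and 0.94.

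The levels bear out the name of a late rise under higher copper only in part. The median member stood at 3.09, 3.67 and 3.88 log2(CPM+1) in higher copper at 1, 4 and 12 h. In lower copper the medians were 2.90, 2.94 and 2.87, and in controls they were 3.85, 3.25, 3.86 and 2.71 at 0, 1, 4 and 12 h. Higher copper at 12 h was thus near the level of the untreated cultures at 0 h, with a median difference of 0.05, and in 44 members the 0 h control was the higher of these groups. The median member of higher copper stood 0.21 higher at 12 h than at 4 h, whereas that of the controls stood 1.12 lower. Between these times 28 members were over 0.5 higher in higher copper, and 85 were over 0.5 lower in controls. In 82 members the drop in the control means was larger than the gain in higher copper. The group with the lowest mean was the control at 12 h for 52 members. The group with the highest mean was higher copper at 12 h for 40, higher copper at 4 h for 15, the control at 0 h for 31 and the control at 4 h for 14.

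**Figure D1:**
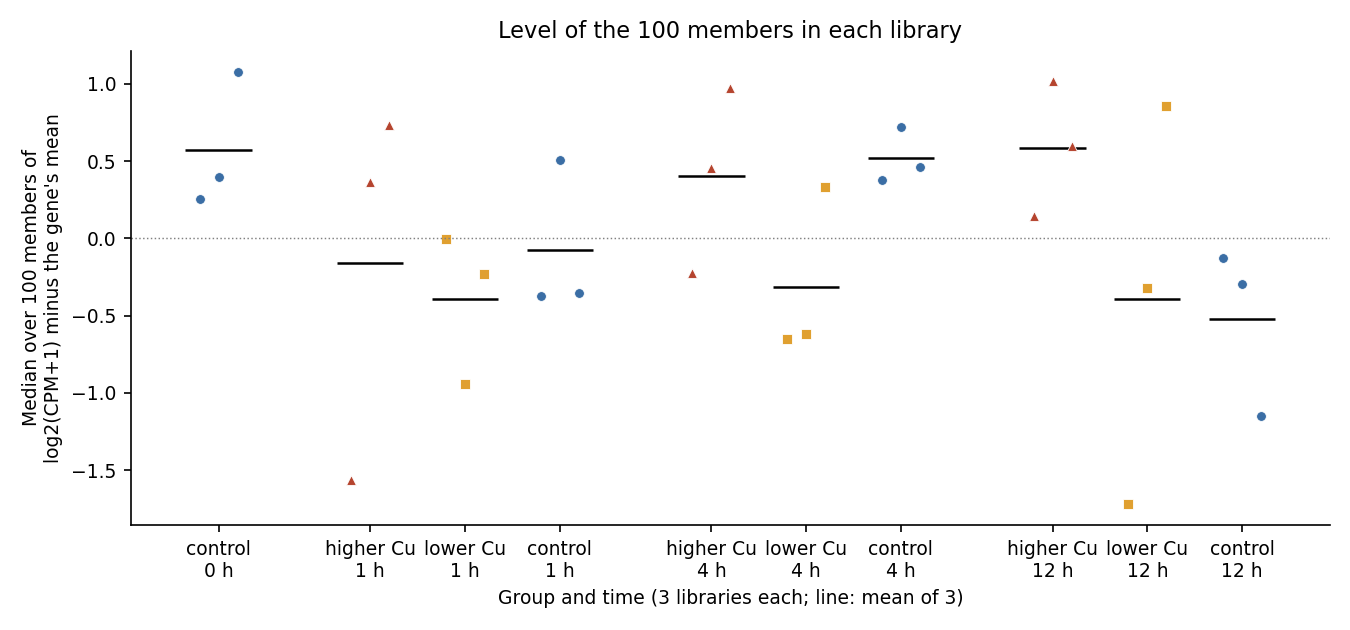
Each point is 1 library: the median over the 100 members of log2(CPM+1) minus each gene's mean over 30 libraries (y axis), by group and time (x axis), with a line at the mean of 3. Points of 1 group lie far apart, from -1.72 to 0.86 in lower copper at 12 h and from -1.57 to 0.73 in higher copper at 1 h.

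Libraries of the same group differed widely over these genes. The median member of the 3 libraries lay 0.14, 1.02 and 0.60 above its mean in higher copper at 12 h, at -1.72, -0.32 and 0.86 in lower copper at 12 h, and at -0.13, -0.30 and -1.15 in controls at 12 h. At 12 h every higher copper library was therefore above every control library, while the lower copper libraries ran from below all the controls to above 2 of the higher copper libraries. In higher copper at 1 h, replicate 1 lay at -1.57 and the other two at 0.36 and 0.73. Replicate 1 of higher copper at 1 h held the lowest value of the series for 37 members, and replicate 1 of lower copper at 12 h for 47, counting ties at 0. Differences within groups made up 64.7% of the variance of the members over the 30 libraries, against 53.3% for the other genes. Scaling by total counts also moved all genes a little: the median of all genes was lower by 0.14 in controls at 12 h than at 0 h, lower by 0.11 in controls at 12 h than at 4 h, and lower by 0.13 in lower copper than in controls at 4 h. With TMM library sizes these medians were within 0.02 of 0, and the member median at 12 h, higher copper minus control, was 1.11.

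**Figure D2:**
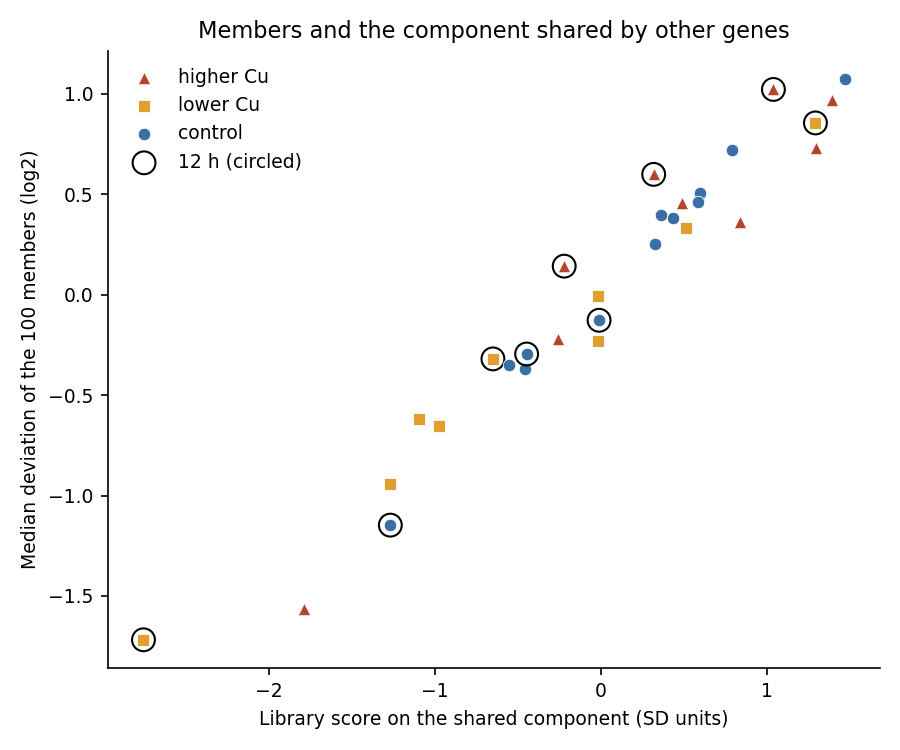
Each point is 1 of 30 libraries: its score on the component that other genes share (x axis, SD units) against the median deviation of the 100 members (y axis, log2), with 12 h libraries circled. The points lie close to a line (Pearson's r = 0.97), and groups are mixed along it.

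The members moved together with a component that runs through the rest of the transcriptome. It is the first principal component of the deviations within groups over 6611 genes that are no members, where it held 52.7% of the variance and the second 11.9%, and each library was scored on it. Over the 30 libraries the score and the median deviation of the members had Pearson's r = 0.97 and Spearman's rho = 0.96, and r = 0.97 over 28 libraries without the 2 farthest. Both come from the same libraries and depth, and the rule used 18 of the 30, so this is a description with no p. Total counts went with the member deviation far less closely (r = 0.25, rho = 0.26). The median member differed by 0.71 log2 per SD of the component, against 0.09 for all genes, and 70 members exceeded the 95th percentile of all genes (0.55). At 12 h, higher copper mostly scored above the controls on the component, so a rule that ranks on d(12) favours genes with steep slopes. These slopes are thus in part fixed by the choice of the members. With the score as a term in the group means, the median d(12) was 0.46 in place of 1.15. It was then 1 or more in 13 members, under 0.5 in 57 and 0 or less in 7. The lower level of controls at 12 h than at 4 h became 0.24 in place of 1.12, and the higher level of higher copper at 12 h than at 4 h became 0.35. The score at 12 h was -0.22, 1.04 and 0.32 in higher copper, -2.75, -0.65 and 1.29 in lower copper and -0.01, -0.45 and -1.27 in controls. Since it also differs between groups, a copper effect that runs along the component and a difference between libraries cannot be told apart, and what the component stands for was not tested.

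The members are mostly short genes. Their median length in RefSeq was 705 bases, from 198 to 2985, against 1221 for the genes that could be chosen. Of those genes, 1432 were up to 840 bases long and held 64 members. The 1427 genes over 840 and up to 1221 bases held 26, the 1425 up to 1788 bases held 6, and the 1425 longer ones held 4. Of all RefSeq lengths, 85.4% are multiples of 3. The deviation of other short genes in a library went with that of the members over the 30 libraries (r = 0.87, rho = 0.84). They were also weakly expressed: the median member had 14.4 CPM at 12 h of higher copper, against 40.0 for the genes that could be chosen, and a median of 41 counts per library. In 18 members at least 1 library had no count. All 10 groups reached the floor in 55 members, and only 1 group did so in 7, which was higher copper at 12 h for 3 of them.

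**Figure D3:**
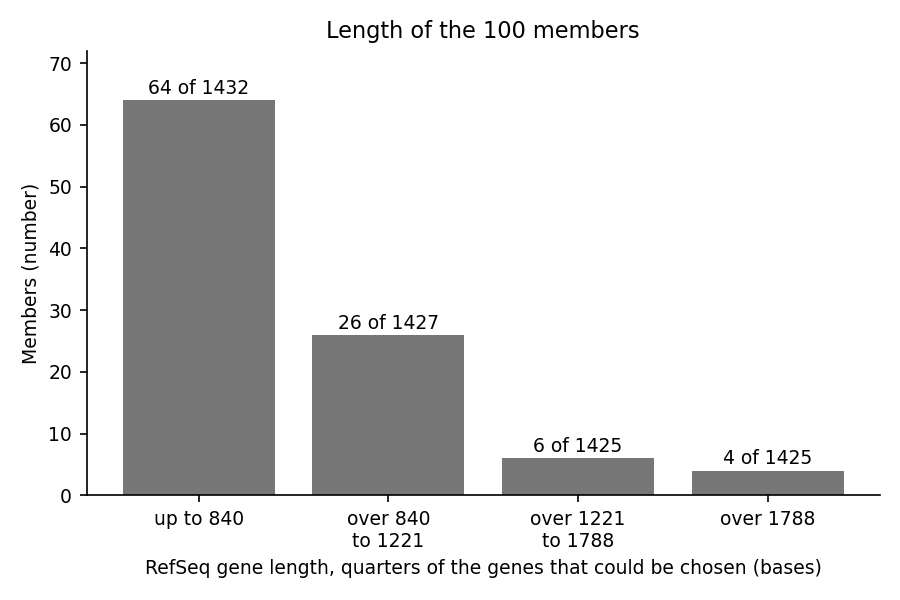
Bars give the number of members (y axis) in each of 4 ranges of gene length in bases (x axis), with the number of genes that could be chosen beside it. The range up to 840 bases holds 64 members and that over 1788 bases holds 4.

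By locus tag the members lay on all 19 chromosomes with a gene that could be chosen. Their share ran from 0.372% on chromosome 13 to 4.55% on chromosome 18, against 1.75% over all. Only OT_ostta05g01890 and OT_ostta05g01900 were neighbours. At 12 h OT_ostta05g01890 had 1.54, 10.6 and 3.25 CPM in higher copper, 0.787, 1.45 and 6.62 CPM in lower copper and 1.52, 1.57 and 0.563 CPM in controls. Its neighbour OT_ostta05g01900 had 1.03, 6.74 and 4.2 CPM in higher copper, 0.525, 0.726 and 7.38 CPM in lower copper and 0.607, 1.57 and 0.563 CPM in controls. In both, replicates of higher copper spread over several fold and overlapped the controls.

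**Figure D4:**
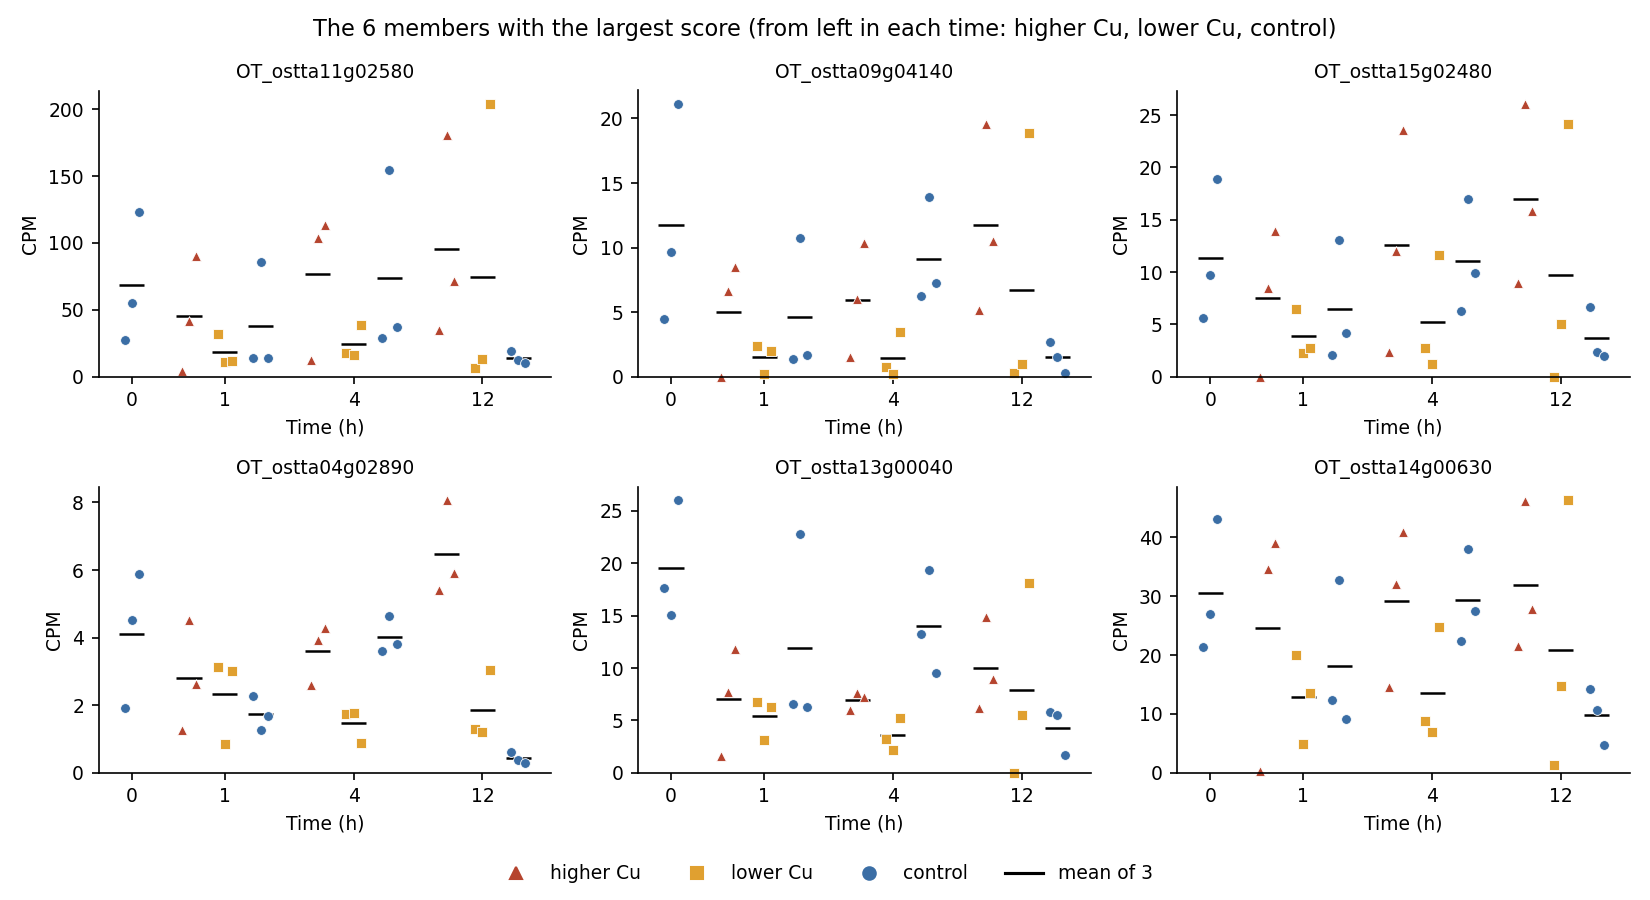
Level in CPM (y axis, from 0) of the 6 members with the largest scores in each of 30 libraries by time in h (x axis), with a line at the mean of 3. In each panel libraries of 1 group spread over several fold, and the highest lower copper library at 12 h is above at least 1 higher copper library in all panels but that of OT_ostta04g02890.

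The largest score, 2.41, belonged to OT_ostta11g02580. It had 4.08, 41.8 and 90.4 CPM in higher copper at 1 h, 12.7, 104 and 113 CPM at 4 h and 34.7, 181 and 71.3 CPM at 12 h. In lower copper it had 32, 11.4 and 11.8 CPM at 1 h, 17.5, 16.7 and 38.5 CPM at 4 h and 6.56, 13.3 and 204 CPM at 12 h. Its controls had 27.9, 55 and 123 CPM at 0 h, 14.3, 85.5 and 14.2 CPM at 1 h, 28.8, 155 and 37.4 CPM at 4 h and 19.4, 12.9 and 10.1 CPM at 12 h. The 12 h controls were the lowest group and the one with the smallest spread, and the highest library of all was replicate 3 of lower copper at 12 h. With the component as a term its d(12) was 1.21 in place of 2.40.

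The next members by score had lower levels. OT_ostta09g04140 had 5.15, 19.5 and 10.5 CPM in higher copper at 12 h, 0.262, 0.968 and 18.8 CPM in lower copper and 2.73, 1.57 and 0.282 CPM in controls, and 4.5, 9.68 and 21.1 CPM in controls at 0 h. OT_ostta15g02480 had 9.01, 26 and 15.9 CPM in higher copper at 12 h, 0, 5.08 and 24.2 CPM in lower copper and 6.67, 2.35 and 1.97 CPM in controls. Higher copper lay above the controls without overlap in both, and 1 lower copper library exceeded 2 of the 3 higher copper ones.

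OT_ostta04g02890, the fourth by score, had 5.41, 8.08 and 5.92 CPM in higher copper at 12 h, 1.31, 1.21 and 3.05 CPM in lower copper and 0.607, 0.392 and 0.282 CPM in controls. Its higher copper libraries lay above both other groups at 12 h, with a mean of 6.47 ± 1.42 CPM against 0.427 ± 0.165 CPM in controls (SD, n = 3 each). The control mean at 4 h was 4.02 ± 0.544 CPM and at 0 h 4.12 ± 2.01 CPM, so the 12 h controls were the lowest group. These 12 h controls rest on 2, 1 and 1 counts. OT_ostta04g02890 reached the floor only in higher copper at 12 h, so a high level there is favoured by its choice. Its slope on the component was 0.24 log2 per SD, and its d(12) with the component as a term was 2.15 in place of 2.38.

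OT_ostta13g00040 illustrates members whose score came in part from an early deficit. It averaged 7.02 ± 5.14 CPM in higher copper at 1 h against 11.9 ± 9.45 CPM in controls, and 6.93 ± 0.847 CPM at 4 h against 14 ± 4.93 CPM in controls (SD, n = 3 each). At 12 h it had 6.18, 14.8 and 8.98 CPM in higher copper, 0, 5.56 and 18.1 CPM in lower copper and 5.76, 5.49 and 1.69 CPM in controls. The 0 h controls, with 17.6, 15 and 26 CPM, stood above all of the 12 h libraries of higher copper.

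The remaining 10 of the 15 largest scores ran from 1.41 to 1.73. OT_ostta14g00630 had 21.6, 46.3 and 27.9 CPM in higher copper at 12 h, 1.31, 14.8 and 46.3 CPM in lower copper and 14.3, 10.6 and 4.79 CPM in controls. OT_ostta02g04750, the member with the steepest slope on the component (1.28 log2 per SD), had 37.1, 98.8 and 82.6 CPM in higher copper at 12 h, 2.62, 18.9 and 107 CPM in lower copper and 27.9, 32.2 and 5.63 CPM in controls. OT_ostta04g03500 had 21.6, 58.6 and 28.1 CPM in higher copper at 12 h, 1.05, 18.9 and 66.7 CPM in lower copper and 26.1, 18 and 6.76 CPM in controls. In OT_ostta04g03500 the higher copper and control libraries overlapped, and its d(12) of 1.10 was 0.01 with the component as a term.

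The others were OT_ostta05g04160, OT_ostta02g04905, OT_ostta10g01960, OT_ostta01g03430, OT_ostta10g02680, OT_ostta11g02850 and OT_ostta09g03940, with higher copper means at 12 h from 3.90 to 21.7 CPM. Among the 15, 11 had all higher copper libraries above all control libraries at 12 h, against 16% of the genes at the floor, but the rule used these libraries and nothing is read from the count. Only 6 had their highest mean there. In all 15, replicate 3 of lower copper at 12 h held at least 2 times the level of replicate 1. Of the 15, 14 exceeded the 95th percentile of slopes on the component, which the choice by score favours. With the component as a term 4 of the 15 kept a d(12) of 1 or more. Of the 15, 13 were up to 840 bases long.

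The 5 most abundant members at 12 h of higher copper were OT_ostta01g04420, OT_ostta07g00470, OT_ostta16g02310, OT_ostta16g01460 and OT_ostta10g02770, and they differed among themselves. OT_ostta01g04420, with the highest mean, had 1814, 2258 and 754 CPM in higher copper at 12 h, 639, 1440.0 and 2239.6 CPM in lower copper and 969, 573 and 1131 CPM in controls. Its groups overlapped at 12 h. OT_ostta16g01460 had 238, 285 and 162 CPM in higher copper at 12 h, 92.1, 147 and 204 CPM in lower copper and 124, 81.2 and 141 CPM in controls, with no overlap between higher copper and control. OT_ostta16g02310 had 140.0, 357 and 295 CPM in higher copper at 12 h, 15.2, 98.7 and 308 CPM in lower copper and 114, 129 and 35.5 CPM in controls. It also had 168, 206 and 464 CPM in higher copper at 4 h, so its highest mean was at 4 h. Per length, OT_ostta01g04420 had 2008 and OT_ostta16g02310 214 CPM per kilobase at 12 h of higher copper.

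A few members had means below the control early and near it later, under higher and lower copper alike. OT_ostta07g00470, second in abundance with 1024 CPM per kilobase at 12 h of higher copper, had 114, 223 and 276 CPM in higher copper at 1 h against 357, 597 and 298 CPM in controls. At 4 h it had 175, 380.3 and 218 CPM in higher copper against 661, 575 and 486 CPM in controls, and at 12 h 455, 595 and 286 CPM against 512, 299.7 and 462 CPM in controls. Higher copper was below the control without overlap at 1 and 4 h, and the groups overlapped at 12 h. With the doubted controls exchanged, the lowest control at 4 h would have 298 CPM, below the 380.3 CPM of 1 higher copper library, and the separation at 4 h would be lost. As labelled, its d was -1.06, -1.22 and 0.04 at the 3 times. In lower copper its means were 282, 299 and 428 CPM at 1, 4 and 12 h, against 417, 574 and 425 CPM in controls.

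OT_ostta04g05160 and OT_ostta03g04260 shared this course and were the other members with a deficit over 1 at both early times. OT_ostta04g05160 had 17.9, 35.4 and 37.5 CPM in higher copper at 1 h, 29.1, 28.6 and 23.2 CPM at 4 h and 42, 55.7 and 29.1 CPM at 12 h. Its controls had 88.2, 61.2 and 105 CPM at 0 h, 65.9, 70.9 and 45.7 CPM at 1 h, 72, 60.5 and 60.6 CPM at 4 h and 44.3, 40.8 and 36.6 CPM at 12 h. At 12 h the mean of higher copper was higher than at 4 h and that of the controls lower. In lower copper its means were 37.9, 29.8 and 42.0 CPM at 1, 4 and 12 h, against 60.8, 64.4 and 40.6 CPM in controls. OT_ostta03g04260 had 0.941, 5.05 and 3.71 CPM in higher copper at 1 h, 2.86, 4.38 and 4.87 CPM at 4 h and 4.63, 5.16 and 6.12 CPM at 12 h, against 9.51, 11.4 and 5.44 CPM, 9.84, 10 and 10.3 CPM and 7.89, 7.06 and 4.23 CPM in controls at these times. In lower copper OT_ostta03g04260 had means of 4.74, 3.25 and 5.39 CPM at these times, against 8.78, 10.1 and 6.39 CPM in controls. It is the 1 member with d(12) below 0 (-0.20). The members of this course and OT_ostta18g01770 are the 4 members with d(12) under 0.5. OT_ostta18g01770 was named after its values were seen.

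**Figure D5:**
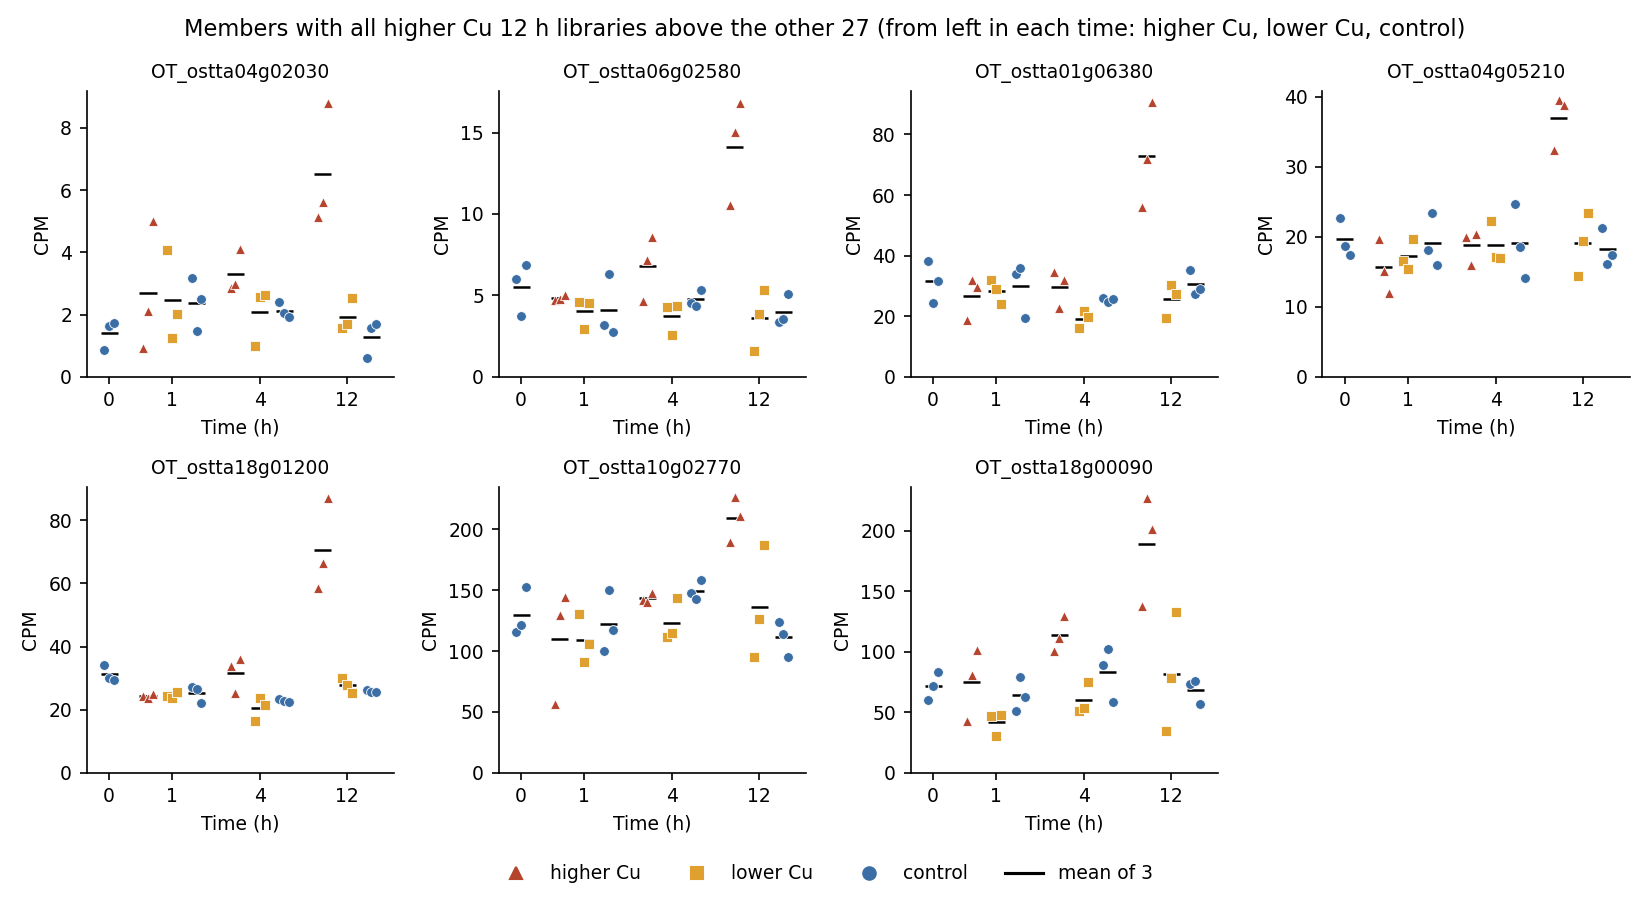
Level in CPM (y axis, from 0) of the 7 members whose higher copper libraries at 12 h all lie above the other 27 libraries, by time in h (x axis), with a line at the mean of 3. In OT_ostta18g01200 the 3 libraries have 58.4 to 87.2 CPM and all others at most 36.1 CPM.

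In 7 members the higher copper libraries at 12 h lay above all 27 other libraries. The same held for 64 of the 6711 genes at the floor (0.954%). The rule used these libraries, so nothing is read from the shares, and the 7 were picked out after their values were seen. They ranked between 26 and 99 by score. Their slopes on the component ran from -0.01 to 0.41, all under the 95th percentile, and their d(12) with the component as a term ran from 0.63 to 1.54. Replicate 3 of the control at 0 h scored 1.47 on the component, and higher copper at 12 h at most 1.04. A gene with a steep slope could thus hardly be among the 7, and their slopes are no result. Only 1 of the 7 was up to 840 bases long, and their median length was 1328 bases.

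OT_ostta18g01200 had 58.4, 66.5 and 87.2 CPM in higher copper at 12 h, 30.2, 27.8 and 25.2 CPM in lower copper and 26.1, 25.5 and 25.6 CPM in controls. At 4 h it had 33.8, 25.4 and 36.1 CPM in higher copper, 16.5, 23.6 and 21.6 CPM in lower copper and 23.5, 22.9 and 22.5 CPM in controls, and at 1 h 24.5, 23.7 and 25.1 CPM, 24.3, 23.6 and 25.5 CPM and 27.2, 26.6 and 22 CPM in the same groups. At 4 h its higher copper libraries already lay above all those of lower copper and of the control, with a d of 0.43. Apart from 12 h of higher copper its libraries ran from 16.5 to 36.1 CPM, with 34.1, 30.1 and 29.4 CPM at 0 h. Its higher copper mean at 12 h was 2.23 times the next group mean and 2.75 times that of the 12 h control.

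OT_ostta01g06380 had 56.1, 71.8 and 90.8 CPM in higher copper at 12 h, 19.4, 30.2 and 27.2 CPM in lower copper and 35.2, 27.5 and 29 CPM in controls. Its higher copper libraries had 18.8, 31.9 and 29.6 CPM at 1 h and 34.6, 22.6 and 32 CPM at 4 h, overlapping its controls at both times. The mean at 12 h was 2.31 times the next group mean. OT_ostta04g05210 had 32.4, 39.5 and 38.8 CPM in higher copper at 12 h, 14.4, 19.4 and 23.4 CPM in lower copper and 21.2, 16.1 and 17.5 CPM in controls, and its higher copper mean was 1.88 times the next.

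OT_ostta06g02580 had 10.6, 15 and 16.8 CPM in higher copper at 12 h, 1.57, 3.87 and 5.35 CPM in lower copper and 3.34, 3.53 and 5.07 CPM in controls. OT_ostta04g02030, the longest member with 2985 bases, had 5.15, 5.61 and 8.79 CPM in higher copper at 12 h, 1.57, 1.69 and 2.55 CPM in lower copper and 0.607, 1.57 and 1.69 CPM in controls. Both were lower in every library of the other groups, and their higher copper means at 12 h were 2.08 and 1.96 times the next. OT_ostta04g02030 reached the floor only in higher copper at 12 h, so a high level there is favoured by its choice.

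OT_ostta10g02770 had 189, 227 and 211 CPM in higher copper at 12 h, 94.7, 127 and 187 CPM in lower copper and 124, 114 and 95.2 CPM in controls. OT_ostta18g00090 had 138, 227 and 202 CPM in higher copper at 12 h, 34.9, 78.4 and 133 CPM in lower copper and 73.4, 76.1 and 56.9 CPM in controls. Lower copper replicate 3 came next to the higher copper libraries in both. OT_ostta18g00090 already had 101, 111 and 129 CPM in higher copper at 4 h, against 88.8, 103 and 58.7 CPM in controls, and its means at 12 h and 4 h in higher copper were 189 ± 45.7 and 114 ± 14.4 CPM (SD, n = 3 each).

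Over all members, 57 had no overlap between higher copper and control at 12 h, where higher copper was above, against 16% of the genes at the floor. Without replicate 1 of higher copper at 12 h it was 88, against 27.9% of the genes at the floor. Leaving out its replicate 2 or 3 instead gave 57 and 62, against 18% and 19.1%. Without replicate 1, 2 or 3 of the control at 12 h it was 76, 69 and 57, against 22.5%, 23% and 17.7%. Leaving out a library can only keep or raise such a count, because fewer libraries have to lie apart. What sets the size of these changes was not tested. In the edgeR fit 18 members passed an adjusted p under 0.05 as higher in higher copper than in the control at 12 h (4.87% of the 7190 genes tested). In the authors' deposited table for 2 µM against control at 12 h, 50 members were higher at an adjusted p under 0.05, and 5.56% of its genes were. In the authors' deposited table for 2 µM against 0.4 µM at 12 h, 2 members were higher, and 0.237% of its genes were. The rule used these libraries, and nothing is read from these counts.

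Split after the values were seen, 70 members lay above the 95th percentile of slopes on the component and 30 did not. The slopes come from the libraries that also give the values below, so a difference between the 70 and the 30 is in part fixed by the split and is no result. The median of the 70 was 0.13 higher at 12 h than at 4 h in higher copper and 1.17 lower in controls. That of the 30 was 0.63 higher in higher copper and 0.51 lower in controls. Against the control at 0 h, higher copper at 12 h stood at -0.06 in the 70 and at 0.44 in the 30. The median lengths were 659.5 and 888 bases.

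The difference from the control at 12 h was smaller in lower copper. The median member stood 0.10 above the control at 12 h, 15 members by 0.5 or more, whereas higher copper stood 1.02 above lower copper, 92 members by 0.5 or more. At 1 h lower copper was 0.33 below the control, and at 4 h 0.91 below it, where it was below in all 100 members (in 96 with TMM library sizes). With the component as a term the 4 h difference was -0.06 and higher minus lower copper at 12 h was 0.25. The lower copper libraries at 12 h spanned 4-fold or more in 75 members. These comparisons share libraries with the rule or with each other and were not tested.

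The libraries the rule did not rank on, lower copper and the control at 0 h, allow a test of the change with time outside higher copper, though its floor used every group. OT_ostta01g03430, OT_ostta05g01900 and OT_ostta16g02677 reached the floor only in the control at 0 h, with means of 5.08, 7.16 and 6.38 CPM there, so that a lower level than in that control is favoured by their choice. Between 12 h and 4 h of lower copper, edgeR's quasi-likelihood test with Benjamini-Hochberg adjustment called no member in either direction (of all genes tested, 0% rose and 0.0556% fell). At an unadjusted p under 0.05, 2 members were higher and 0 lower, against 209 and 220 of all genes, and DESeq2 called 0 members and 34 of all genes. The median fold change of the members was 0.33 log2 and of all genes 0.04. As a mean of log values the member median was -0.05, with 1 of the 3 libraries at 12 h far above the others. The member nearest to a call was OT_ostta18g01200, with 0.50 ± 0.17 log2 (SE, adjusted p = 0.60, edgeR). Its SE was the smallest of the members, and the largest was 1.15 log2 in OT_ostta09g04140.

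Between 12 h and 1 h of lower copper edgeR again called no member (0% of all genes rose and 0% fell). At an unadjusted p under 0.05, 4 members were higher and 0 lower, against 343 and 286 of all genes. DESeq2 called 89 genes and 1 member, OT_ostta18g00090, which had 34.9, 78.4 and 133 CPM at 12 h and 46.9, 30.5 and 47.6 CPM at 1 h. Its change was 1.04 ± 0.28 log2 (SE) at an adjusted p of 0.15 in edgeR and 1.06 ± 0.29 at 0.024 in DESeq2. Without replicate 1 of lower copper at 12 h edgeR called it too (1.35). The adjusted p ran from 0.00091 to 0.999 over the alternatives, and the highest library at 1 h overlapped the lowest at 12 h.

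Against the control at 0 h, 12 h of lower copper showed 0 members that rose and 2 that fell by edgeR, while 6.22% of all genes rose and 3.87% fell. At an unadjusted p under 0.05, 1 member was higher and 6 were lower, against 1040 and 733 of all genes. DESeq2 also called 0 members that rose and 2 that fell, and 915 of all genes. The members that fell were OT_ostta03g04260 and OT_ostta04g05160, described above for their early deficit under higher copper. OT_ostta03g04260 had 3.41, 4.11 and 8.65 CPM at 12 h of lower copper against 12.7, 11.5 and 14.2 CPM in controls at 0 h, a change of -1.06 ± 0.34 log2 (SE, adjusted p = 0.045, edgeR). OT_ostta04g05160 had 20.7, 39.4 and 65.9 CPM against 88.2, 61.2 and 105 CPM in controls at 0 h, a change of -0.83 ± 0.26 log2 (SE, adjusted p = 0.043, edgeR). In OT_ostta03g04260 the 2 groups did not overlap, and in OT_ostta04g05160 replicate 3 of lower copper exceeded 1 of the controls. Both calls lie close to the threshold: of 38 alternatives, 16 lost the first (adjusted p 0.0099 to 0.22) and 9 the second (0.0052 to 0.28). The median member stood at -0.48 log2, and at -0.86 as a mean of logs with TMM library sizes. Over the 97 members left without the 3 that reached the floor only at 0 h, the medians were -0.47 and -0.85, and 0 members rose and 2 fell.

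The count of members that fell rested on single libraries. Without replicate 3 of lower copper at 12 h it was 26, where 702 of all genes fell (9.72%), and without replicate 1 of higher copper at 1 h it was 4, where 330 did (4.57%). It was 0 without replicate 1 or 3 of the control at 0 h, replicate 2 of the control at 4 h, replicate 1 of lower copper at 4 h, or replicate 1 or 2 of lower copper at 12 h, where between 113 and 274 of all genes fell. It was 1 without replicate 2 of the control at 0 h, 1 of the control at 1 h, 1 or 3 of the control at 4 h, 2 of the control at 12 h, 3 of lower copper at 1 h, 2 of lower copper at 4 h, or 1 or 2 of higher copper at 12 h. In the fits with 1 such member, between 230 and 288 of all genes fell (3.18% to 3.99%).

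Membership itself depended on single libraries. Applied again without replicate 1 of higher copper at 1 h, the rule kept 31 of the 100. It kept 61 without replicate 3 of the control at 12 h, 64 without replicate 1 of higher copper at 4 h, and 89 at most over all 18 libraries. Without both doubted controls it kept 79.

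KEGG modules under the same rule give the only functional names in the data. Of 236 modules 219 could be chosen, and 3 reached the score of the last member, 0.95. Each is a description, with no test, and modules share reads with one another. Mitochondrial fatty acid elongation (M00085), with the largest module score (1.30), had 34.9, 88.1 and 119.8 CPM in higher copper at 12 h, 7.53, 30.8 and 62.6 CPM in lower copper and 24.4, 29.9 and 11.8 CPM in controls, spreading like the members over several fold within a group. The gyrase-protecting protein module (M00729, score 1.04), named after a bacterial resistance protein, had 759.6, 889 and 931 CPM in higher copper at 12 h, 355, 504 and 716 CPM in lower copper and 489, 465 and 314 CPM in controls, and its higher copper libraries were above all others. The prokaryotic cytochrome c oxidase module (M00155, score 0.99), named after the terminal oxidase of respiration, had 8.54, 4.12 and 2.53 CPM in higher copper at 12 h, 5.44, 6.83 and 8.71 CPM in lower copper and 13.3, 6.03 and 0.79 CPM in controls. Its score came from an early deficit, with d of -1.11 at 1 h, -1.01 at 4 h and -0.02 at 12 h.

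The other 7 of the first 10 modules had scores from 0.68 to 0.90, below that of the last member. In order of score they were homoprotocatechuate degradation (M00533), the FA core complex (M00413), coenzyme M biosynthesis (M00358), acylglycerol degradation (M00098), DNA damage-induced cell cycle checkpoints (M00691), trans-cinnamate degradation (M00545) and phosphatidylcholine biosynthesis (M00090). Of these, M00691 is the 1 whose higher copper libraries at 12 h were above all others in the series. It had 2405, 2222 and 3366 CPM in higher copper at 12 h, 2203, 1797 and 1128 CPM in lower copper and 1315, 1135 and 1333 CPM in controls. Of the first 10 modules, 6 stayed among the first 10 without both doubted controls. These included M00085, M00729, M00155 and M00413 but not M00691.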

How the data were processed

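Gene counts and KEGG module counts, deposited by the authors as whole numbers, were used as they are. Libraries were stranded and polyA-selected with reads of 50 nt, per the labels' protocols. For the aligner, counter, strand setting and genome build no statement was found in the sources used here, and overlapping, antisense and near-identical genes are uncertain. The authors' deposited tables for 12 h give log2 fold changes and adjusted p-values, and the submitters' processing notes name DESeq2.

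From the counts, CPM and log2(CPM+1) with a pseudocount of 1 were computed with numpy 2.4.6 and pandas 2.3.3. The tests used R 4.3.3 and edgeR 4.0.16: TMM, filterByExpr (7190 genes kept, 437 removed), 1 quasi-likelihood fit of 10 group means with 20 residual degrees of freedom, Benjamini-Hochberg adjustment over all genes, and calls at an adjusted p under 0.05. DESeq2 1.42.0 was an alternative. Counts were simulated for the change from 4 to 12 h of lower copper (7106 genes, 200 changed). They were drawn independently, with the same setting of the spread for every gene and no component shared between genes. On these counts the fit recovered 53.3% of genes changed by 1 log2 and 99.0% of those changed by 2. Of its calls on these counts, 5% were false. In the measured libraries the SE of this change ran from 0.17 log2 (OT_ostta18g01200) to 1.15 log2 (OT_ostta09g04140) over the members. The shares recovered and falsely called at the spread of the members, or with a shared component, were not tested.

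The members and lists were chosen with earlier results of these data known. Genes named are the 15 with the largest score, the 5 most abundant at 12 h of higher copper, called members of the 12 h minus 4 h test (there were none), the 3 on each side of the limit, and neighbouring members. Others were named after their values were seen. Gene lengths and locus tags come from RefSeq's table for strain RCC4221, which matched 7626 genes. Promoters and proteins were not analysed here. Replicate numbers were not taken as pairs in the main fit. Every correlation of same-numbered libraries was over 0.1 in 5 of 45 pairs of groups, and in none of those tested. For lower copper at 12 h they were 0.32, 0.04 and 0.63 with lower copper at 4 h. With the control at 0 h they were 0.28, 0.04 and 0.62, and with lower copper at 1 h -0.47, -0.01 and 0.33. Whether same-numbered libraries belong together was not tested.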

Additional observations from a re-analysis of the deposited data

Results flagged for a closer look

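In OT_ostta03g04260 the change from 4 to 12 h ran opposite ways in lower copper and in controls. The 3 lower copper libraries at 12 h lay 0.08, 0.29 and 1.21 log2(CPM+1) above the 4 h mean of lower copper, and the 3 control libraries at 12 h lay at -0.32, -0.46 and -1.08 from the 4 h mean of the controls. The mean changes differed by 1.14. The lower copper libraries overlapped, with 3.26, 4.16 and 2.34 CPM at 4 h and 3.41, 4.11 and 8.65 CPM at 12 h. Their change was 0.71 ± 0.38 log2 (SE, adjusted p = 0.89, edgeR). The difference between the mean changes was not tested, and the controls were used to choose the gene.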

How the results depend on the processing

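Over 38 alternatives, the test values of the 38 members named here or above kept their side of the threshold in 4273 of 4318 cases, lost a call in 25 and gained one in 20, and none reversed. For 12 h minus 4 h of lower copper, no alternative called a member. All genes called there were 4, and 34 with DESeq2, 0 with only the groups compared, 59 with the shared component as a term and 0 to 5 with 1 library left out. For 12 h minus 1 h, members that rose were 0, and 1 with DESeq2, 3 with the component (OT_ostta18g00090, OT_ostta10g02770 and OT_ostta16g02410, named after their values were seen) and 0 to 1 with 1 library left out. All genes called were 0, and 89 with DESeq2, 5 with DESeq2 size factors, 3 with no filter, 8 with the replicate block, 22 with the doubted controls left out, 24 with them exchanged, 206 with the component and 0 to 21 with 1 library left out. Against the control at 0 h, 4 members rose with the component (OT_ostta10g02770, OT_ostta16g02310, OT_ostta18g00090 and OT_ostta20g00930, where 5.87% of all genes rose) and 2 fell (OT_ostta06g01850 and OT_ostta16g02470, neither among the 2 that fell without it, where 6.63% fell), all 6 listed after their values were seen. Members that fell were 0 with only the groups compared, and all genes called were 0 there against 725. With 1 library left out, members that fell ran from 0 to 26 and all genes called from 232 to 1535. The rule kept 61 members with a pseudocount of 5, 66 with the doubted controls exchanged and 47 with the component. It kept 23 without replicate 3 of the control at 12 h and replicate 1 of higher copper at 1 h. With 1 library left out it kept 31 to 89. With 50 genes taken it kept 50, which is fixed by the ranking. The count without overlap ran from 57 to 88 with 1 library left out, where it can only stay or rise. The component, the pair of libraries and the members left out for their floor at 0 h were chosen after seeing the data. The cause of these changes was not tested, save that fewer libraries or genes enter some fits. Same-numbered libraries correlated from -0.61 to 0.78, 15 of 30 best with their own number, and with the replicate block 815 genes were called against the control at 0 h, 2 members among them. The members had a median of 41 counts in a library, and the part of depth in the calls was not tested.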
